A study of Mus musculus with 9 samples.

Results

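The 6 genes described here are the long noncoding RNAs Malat1 and Neat1 and the paraspeckle protein genes Sfpq, Nono, Pspc1 and Rbm14. They were picked out by gene name, with earlier results of these data known, and each name matched 1 of the 55401 genes in the deposited count table. All 6 passed the filter on low counts and were among the 16762 genes tested. The data are poly(A)-enriched RNA-seq libraries of primary neonatal mouse ventricular myocytes (NMVMs), wild-type heart muscle cells taken from C57BL/6J pups at 1 day of age and grown in DMEM with 10% FBS. The 9 libraries form 3 groups of 3. Control cultures stayed in normal oxygen and complete medium. Hypoxia cultures spent 6 h in a sealed AnaeroPack chamber in DMEM without glucose and serum. Hypoxia + rSRGN cultures had the same treatment with recombinant serglycin, a proteoglycan of secretory granules, added to the medium. Oxygen and medium both differ between control and the hypoxic groups, and their parts cannot be told apart. The labels do not say whether the libraries of a group came from separate isolations, so p-values measure the spread between these libraries only.

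Malat1 is an abundant nuclear RNA that gathers in nuclear speckles, the domains where splicing factors are stored. Neat1 is the scaffold of paraspeckles, nuclear bodies that form on its long transcript and not on its short one, and that hold RNA-binding proteins and some edited RNAs in the nucleus. Sfpq, Nono and Pspc1 encode the related DBHS proteins, which pair with each other and coat Neat1, and Rbm14 encodes a protein with a prion-like domain that paraspeckles need for assembly.

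Total counts ran from 21669017 to 22781557 in control, from 16583985 to 18148474 in hypoxia and from 16640239 to 20826701 in hypoxia + rSRGN. All 12 cardiomyocyte markers were detected in these cultures, and their summed level fell from between 44100 and 52100 CPM (counts scaled to a common library size) in control to between 4090 and 6260 CPM in hypoxia, and was between 7720 and 8390 CPM in hypoxia + rSRGN. All 12 were called lower in hypoxia than in control, and 9 of the 12 were called higher with rSRGN than without. The 8 fibroblast markers summed to between 8570 and 9780 CPM in control, between 17000 and 20400 CPM in hypoxia and between 19100 and 19400 CPM in hypoxia + rSRGN. The markers of macrophages (6 genes, 218 to 224 CPM in control and 24.9 to 28.8 CPM in hypoxia), endothelium (6 genes, 64.4 to 87.0 and 41.8 to 52.8 CPM), smooth muscle and pericytes (5 genes, 1530 to 1760 and 2160 to 2410 CPM) and epicardium (3 genes, 126 to 144 and 554 to 608 CPM) summed to less. None of these markers was at 0 in all libraries. The higher smooth muscle and pericyte sum in hypoxia was not shared by most of the 5 genes behind it. Of these, 0 were called higher and 1 lower than in control, and their median change was -0.394 on the log2 scale. In bulk RNA, fewer cells of a type and less RNA per cell cannot be told apart. Some RNAs that lack a long poly(A) tail also moved with the groups. The 7SK RNA gene Rn7sk had 1.44, 4.34 and 3.96 CPM in control against 154 to 177 CPM in hypoxia and 123 to 138 CPM in hypoxia + rSRGN. Mitochondrial rRNA took 0.195% to 0.239% of counts in control, 2.31% to 2.61% in hypoxia and 2.27% to 2.67% in hypoxia + rSRGN. The 13 mitochondrial mRNAs went the other way, with 8.07% to 9.24% in control, 2.74% to 3.45% in hypoxia and 2.54% to 2.95% in hypoxia + rSRGN. The part of these shifts in the values of Malat1 and Neat1 was not tested.

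The 3′ ends of the noncoding members are shown first, since they bear on what a poly(A)-enriched library can capture. The main forms of Malat1 and of long Neat1 are known to end in a genomically encoded A-rich tract, made by RNase P, that folds into a triple helix with U-rich runs just before it, in place of an added poly(A) tail. Short Neat1 ends at an ordinary poly(A) signal. The stretches come from transcripts of GENCODE release 21 (GRCm38), all on the minus strand of chromosome 19, and are written 5′ to 3′ with T for U. Capitals in the first pair mark 2 U-rich runs in each and the 11-base tract common to both ends, and in the last the AATAAA signal.
Malat1-201, chr19:5795982-5796081: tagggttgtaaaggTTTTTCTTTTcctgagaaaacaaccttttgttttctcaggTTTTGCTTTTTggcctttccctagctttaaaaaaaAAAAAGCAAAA
Neat1-201, chr19:5824708-5824807: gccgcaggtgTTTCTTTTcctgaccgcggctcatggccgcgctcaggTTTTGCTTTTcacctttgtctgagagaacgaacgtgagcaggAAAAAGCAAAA
Neat1-202, chr19:5842307-5842366: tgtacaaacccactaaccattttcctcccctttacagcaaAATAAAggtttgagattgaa

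Long Neat1 (Neat1-201, 20771 bases in 1 exon) is annotated to stop exactly at the tract. The same 11 bases occur once in Malat1-201 (6983 bases in 1 exon), at positions 6681 to 6691, and the annotated transcript runs on for another 292 bases. In each of these stretches 2 U-rich runs are marked, and a further T-rich run between them in Malat1-201 is left unmarked. The last AATAAA of Malat1-201 begins 22 bases from its annotated end and that of the short Neat1-202 (3004 bases in 2 exons) 20 bases from its end, whereas the last one in Neat1-201 lies 2077 bases from its end. The annotated Malat1 thus includes sequence beyond the tract. Counts per gene do not separate the ends, so tailed and untailed Malat1, and short and long Neat1, are each 1 value here.

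The genes differ widely in length, so levels were compared per kilobase of exon. Malat1 was the highest in every group, with 246 ± 69 CPM per kilobase in control (SD, n = 3), and ranked 142 of the 16762 genes there. Nono came next (67.0 ± 1.04), followed by Neat1 (40.8 ± 2.14), Sfpq (32.5 ± 0.669), Pspc1 (7.31 ± 0.348) and Rbm14 (5.25 ± 0.779), all in CPM per kilobase in control with n = 3. The order of the group means was the same in all 3 groups. In control and in hypoxia + rSRGN the lowest library of each gene stood above the highest library of the next, but in hypoxia Neat1 (52.5 to 65.5) overlapped with Sfpq (44.9 to 56.6), and Pspc1 (6.50 to 7.88) with Rbm14 (5.65 to 6.62), in CPM per kilobase. The place of Neat1 depends on which transcript the reads came from. Over the 3004 bases of the short form, its level would be 282 ± 14.8 CPM per kilobase in control, 419 ± 48.8 in hypoxia and 360 ± 16.8 in hypoxia + rSRGN (SD, n = 3). By group means that is above Malat1, although in control the Malat1 libraries, at 167 to 297 CPM per kilobase, lay on both sides of it. Nono is on chromosome X, Sfpq on chromosome 4, Pspc1 on chromosome 14, and Rbm14, Malat1 and Neat1 on chromosome 19. Fragments in exons shared with another gene were not counted for either. That touches 21.0% of the exon bases of Rbm14 (a readthrough gene and an antisense gene), 7.72% of Malat1, 4.55% of Sfpq, 1.85% of Neat1 and 0 bases of Nono and Pspc1.

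**Figure D1:**
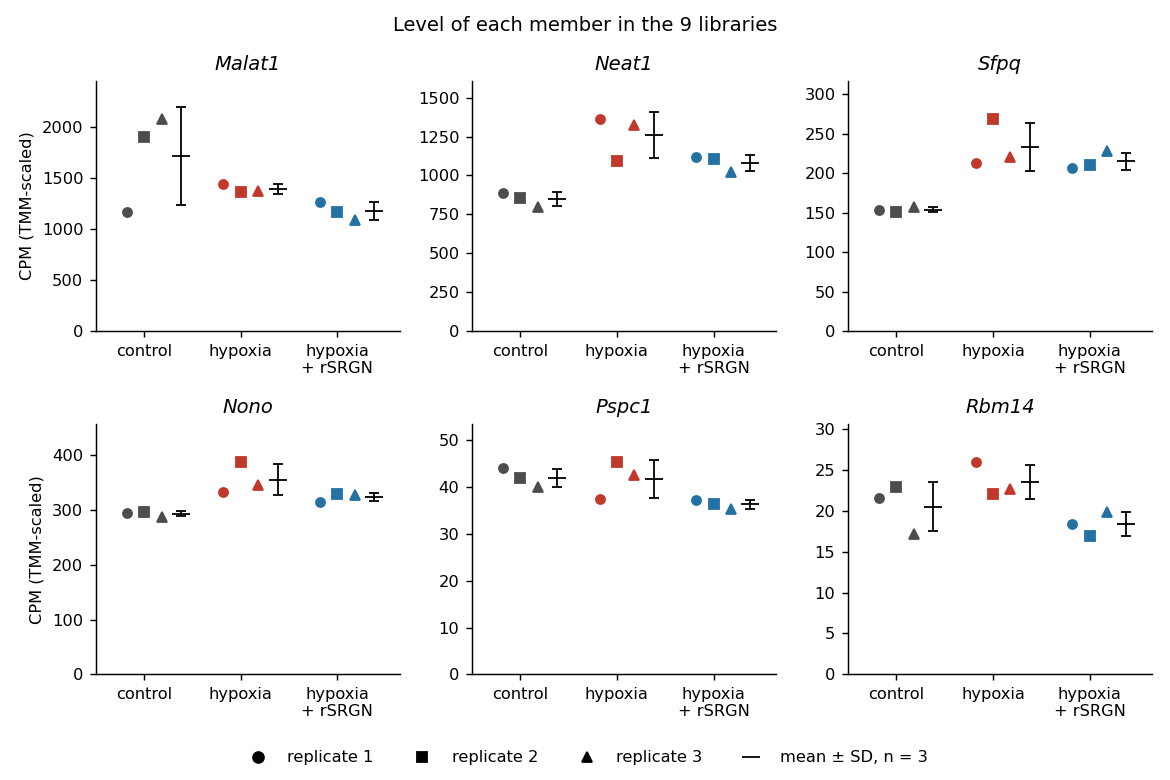
Level of Malat1, Neat1, Sfpq, Nono, Pspc1 and Rbm14 in the 9 libraries, in CPM scaled by TMM on axes that start at 0. Points are libraries, the marker shape gives the replicate number, and the bar beside each group is the mean ± SD (n = 3). Neat1, Sfpq and Nono lie higher in every hypoxia library than in every control library, while control replicate 1 of Malat1 lies at 1169 CPM, below controls at 1903 and 2076 CPM.

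Hypoxia against control asks what oxygen, glucose and serum deprivation did to these transcripts. Sfpq rose 1.52-fold and was the 1 member of 6 called, where a call needs an adjusted p below 0.05 in edgeR's quasi-likelihood test and a fold of at least 1.5. Neat1 was 1.49-fold and Nono 1.21-fold of control, with adjusted p-values below 0.05 and folds under the limit. Malat1 was 0.811-fold of control, on a widely spread control group, and Pspc1 and Rbm14 did not pass the test. Among all genes tested, 26.4% were called higher and 25.1% called lower, so 1 call higher and 0 lower among 6 genes is not above the background. On adjusted p alone 4 of the 6 members passed, Malat1 narrowly, against 70.9% of all genes, and in 3 of the 6 the groups did not overlap, against 73.0%. The 6 log2 fold changes had a median of 0.237, beside 0.054 over all genes tested.

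Sfpq encodes a splicing factor that Neat1 and paraspeckle formation depend on. Its level was 154, 151 and 157 CPM in the control libraries and 213, 269 and 220 CPM in the hypoxia libraries. Every hypoxia library stood above every control library, with replicate 2 the highest. The log2 fold change was 0.60 ± 0.0815 (SE, adjusted p = 8.76e-07, edgeR), with a 95% interval from 0.433 to 0.772 that contains the fold limit of 0.585. The fold, but not the adjusted p, therefore dropped under the limit without hypoxia replicate 2 (0.49), control replicate 1 (0.58) or control replicate 2 (0.57), each time on the log2 scale, and in DESeq2 (0.58).

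Neat1 had 885, 858 and 798 CPM in control and 1362, 1092 and 1326 CPM in hypoxia, so the groups lay apart and hypoxia replicate 2 was the nearest to control. The log2 fold change was 0.57 ± 0.0832 (SE, adjusted p = 2.42e-06, edgeR), with a 95% interval from 0.400 to 0.745. The estimates for Neat1 and Sfpq differ by less than their standard errors, and the fold limit falls between them. Without hypoxia replicate 2 the log2 fold change of Neat1 was 0.66, and Neat1 was called while Sfpq was not.

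Malat1 had 1169, 1903 and 2076 CPM in control against 1444.5, 1363 and 1368 CPM in hypoxia. The hypoxia libraries lay close together, between control replicate 1 and the other controls. The log2 fold change was -0.30 ± 0.130 (SE, adjusted p = 0.0439, edgeR), and without control replicate 1 it was -0.54, the lowest of the values with a library left out, which ran up to -0.15. Its adjusted p was 0.134 in DESeq2 and, in edgeR, 0.102 with library size alone, 0.0597 with the replicate block and 0.0604 in a fit of only these groups, and with a library left out it ran from 6.85e-06 without control replicate 1 to 0.312 without control replicate 3. The SD of log2 CPM of Malat1 among controls was 0.447, beside a median of 0.0864 over the 9750 genes with a mean of at least 10 CPM, of which 21 had a larger SD. In hypoxia its SD was 0.0467, below the median of 0.12 there.

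Control replicate 1 was thus set apart by Malat1 and not by the other members. Its Malat1 level relative to the mean of the other controls was -0.77 on the log2 scale, while the same difference for Neat1, Sfpq, Nono, Pspc1 and Rbm14 lay between 0 and 0.10. Among the 9750 genes, 15 were at least as low in that library, Malat1 included, and 0 were as far in the other direction. Chosen after their values were seen, Rn7sk (1.44 against 4.34 and 3.96 CPM) and the rRNA gene CT010467.1 (1713 against 3660 and 4010 CPM), which lack a poly(A) tail, were among them, as were the oxygen-responsive Egln3, a HIF prolyl hydroxylase (10.1 against 22.4 and 49.8 CPM), and the lactate transporter Slc16a3 (26.9 against 55.0 and 77.7 CPM). The part of RNA without a tail or of culture conditions in the low Malat1 of this library was not tested.

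Nono encodes the DBHS protein that pairs with Sfpq. It had 296, 296 and 288 CPM in control and 333, 387 and 345 CPM in hypoxia. The groups did not overlap, and the log2 fold change was 0.28 ± 0.0708 (SE, adjusted p = 0.00148, edgeR). Pspc1, the third DBHS gene, had 43.9, 41.9 and 40.0 CPM in control and 37.3, 45.2 and 42.6 CPM in hypoxia. These overlapped fully, with a log2 fold change of -0.00973 (adjusted p = 0.929, edgeR) and a 95% interval from -0.195 to 0.176, within the fold limit on both sides. Rbm14 had 21.5, 22.9 and 17.1 CPM in control and 25.9, 22.1 and 22.6 CPM in hypoxia, where the groups overlapped and the log2 fold change was 0.20 ± 0.116 (SE, adjusted p = 0.133, edgeR).

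**Figure D2:**
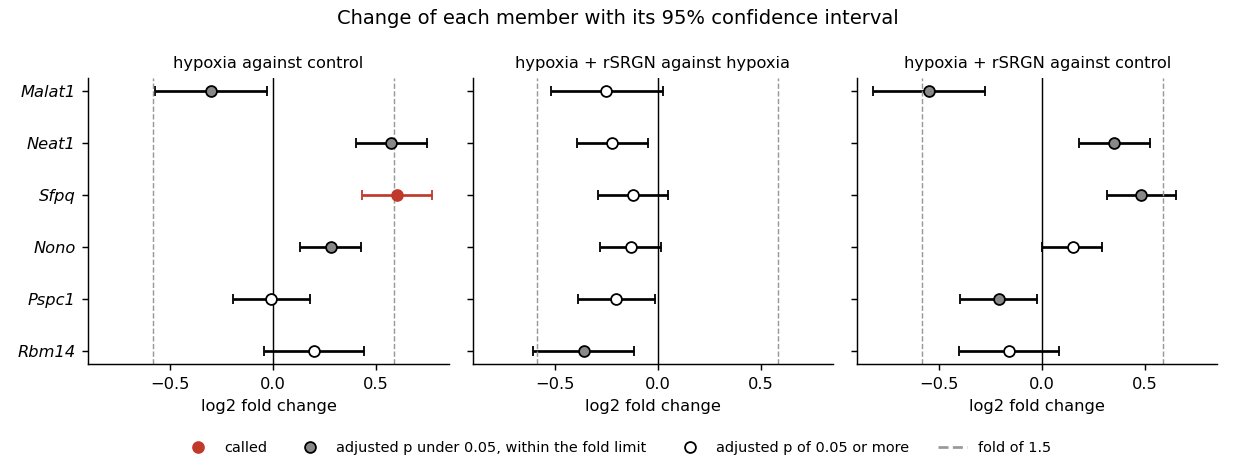
Log2 fold change of each member in the 3 comparisons (horizontal axis) with its 95% confidence interval from edgeR. Red marks a call, grey an adjusted p under 0.05 within the fold limit, open circles an adjusted p of 0.05 or more, and dashed lines a fold of 1.5. Sfpq in hypoxia against control is the only red point, Neat1 lies beside it at 0.57, and all 6 points for hypoxia + rSRGN against hypoxia lie left of 0.

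Hypoxia + rSRGN against hypoxia asks what serglycin added to the hypoxic medium. All 6 members had a log2 fold change below 0, as did 53.7% of all genes tested, and none was called by edgeR, with 3 of 6 at an unadjusted p under 0.05 and 0 called by DESeq2. Over all genes tested, 2.27% were called higher and 0.859% lower. Rbm14 alone had an adjusted p below 0.05, which makes 1 of 6, and 16.6% of all genes did. In 4 of the 6, the groups did not overlap, against 32.0% of all genes, and the median log2 fold change was -0.21 over the members and -0.029 over all genes tested.

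Rbm14 had 18.4, 16.9 and 19.9 CPM with rSRGN against 25.9, 22.1 and 22.6 CPM without. Every library with rSRGN was below every one without, and the log2 fold change was -0.36 ± 0.118 (SE, adjusted p = 0.0401, edgeR). The adjusted p was above the threshold in DESeq2 (0.0558) and in edgeR with RLE scaling (0.0593) or the replicate block (0.0524). It was also above it without control replicate 1 (0.0553), hypoxia replicate 1 (0.144) or 3 (0.0623), or rSRGN replicate 1 (0.106) or 2 (0.18). The share of its exons that overlaps other genes limits this value too. Pspc1 had 37.1, 36.3 and 35.3 CPM with rSRGN, just under the lowest hypoxia library at 37.3 CPM, with a log2 fold change of -0.20 ± 0.0905 (SE, adjusted p = 0.139, edgeR).

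Malat1 had 1266, 1170 and 1086 CPM with rSRGN, below the 1363 to 1444.5 CPM of hypoxia, with a log2 fold change of -0.25 ± 0.131 (SE, adjusted p = 0.217, edgeR). That adjusted p was under 0.05 in edgeR without control replicate 1 (0.0328), in a fit of only the groups compared (0.0437) and with no low-count filter (0.0126). In the other settings it was above 0.05, up to 0.487 in DESeq2, and the fold stayed within the limit throughout. Neat1 had 1119, 1104 and 1025 CPM with rSRGN, which overlapped with hypoxia replicate 2 at 1092 CPM, with a log2 fold change of -0.22 ± 0.0829 (SE, adjusted p = 0.0766, edgeR). For Neat1 the adjusted p was under 0.05 in edgeR with no low-count filter (0.0397) and without hypoxia replicate 2 (0.00181), within the fold limit. In the other settings it was above 0.05, up to 0.273 without rSRGN replicate 3. Sfpq at 207, 211 and 228 CPM overlapped with hypoxia, and Nono at 315, 330 and 327 CPM lay just below it. Their log2 fold changes were -0.12 (95% interval from -0.288 to 0.0489, adjusted p = 0.351, edgeR) and -0.13 (-0.279 to 0.0153, adjusted p = 0.223, edgeR). The interval of each of these 4 genes excludes a rise of 1.5-fold, and a fall of that size lies outside it too.

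Hypoxia + rSRGN against control shares the control libraries with the first comparison and the rSRGN libraries with the second, so it is no independent evidence for either. By edgeR 0 of 6 members were called, with 4 of 6 at an unadjusted p under 0.05 and 0 called by DESeq2, where 24.1% of all genes were called higher and 24.7% lower. On adjusted p alone 4 of 6 passed (68.6% of all genes), and in 4 of 6 the groups did not overlap (73.3% of all genes). Sfpq (log2 fold change 0.48, adjusted p = 1.86e-05) and Neat1 (0.35, adjusted p = 0.000706) were higher than in control within the fold limit, while Malat1 (-0.55, adjusted p = 0.000839) and Pspc1 (-0.21, adjusted p = 0.0419) were lower within it, all from edgeR. For Pspc1 the adjusted p was above the threshold with library size alone (0.11), with the replicate block (0.0543), without control replicate 1 (0.121) or 2 (0.07), and without any 1 of the rSRGN libraries (0.0669 to 0.105). Malat1 was called lower without control replicate 1 (-0.77 on the log2 scale) and without rSRGN replicate 1 (-0.61). Nono had a log2 fold change of 0.15 (adjusted p = 0.0737) and Rbm14 one of -0.16 (adjusted p = 0.227) in the same fit.

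Ratios within a library need no scaling between libraries. Reads of Neat1 per read of Malat1 numbered 0.757, 0.451 and 0.385 in control, 0.943, 0.801 and 0.969 in hypoxia, and 0.884, 0.943 and 0.943 in hypoxia + rSRGN. All 6 hypoxic libraries stood above all controls, with control replicate 1 again the nearest. The mean log2 ratio was 0.83 higher in hypoxia than in control, a 1.77-fold difference, and an exact two-sided permutation test gave p = 0.1, the smallest that 3 against 3 libraries allow (0.15 after Benjamini-Hochberg adjustment over 9 tests). With any 1 library left out the difference lay between 0.62 and 1.11.

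Sfpq and Nono proteins form a heterodimer, and the ratio of Sfpq to Nono reads was 0.521, 0.510 and 0.546 in control, 0.639, 0.694 and 0.638 in hypoxia, and 0.656, 0.640 and 0.697 in hypoxia + rSRGN. Again no hypoxic library reached the control range, and hypoxia was 1.25-fold of control (exact two-sided permutation p = 0.1, adjusted 0.15). The ratio of Pspc1 to Nono differed in the other direction, from 0.149, 0.142 and 0.139 in control to 0.112, 0.117 and 0.123 in hypoxia and 0.117, 0.110 and 0.108 in hypoxia + rSRGN, where hypoxia was 0.82-fold of control (exact two-sided permutation p = 0.1, adjusted 0.15). The balance among the 3 DBHS transcripts thus differed between the control and hypoxic libraries without overlap. With and without rSRGN, the 3 ratios overlapped and differed by 0.04, 0.02 and -0.07 on the log2 scale (exact two-sided permutation p = 0.8, 0.5 and 0.3).

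**Figure D3:**
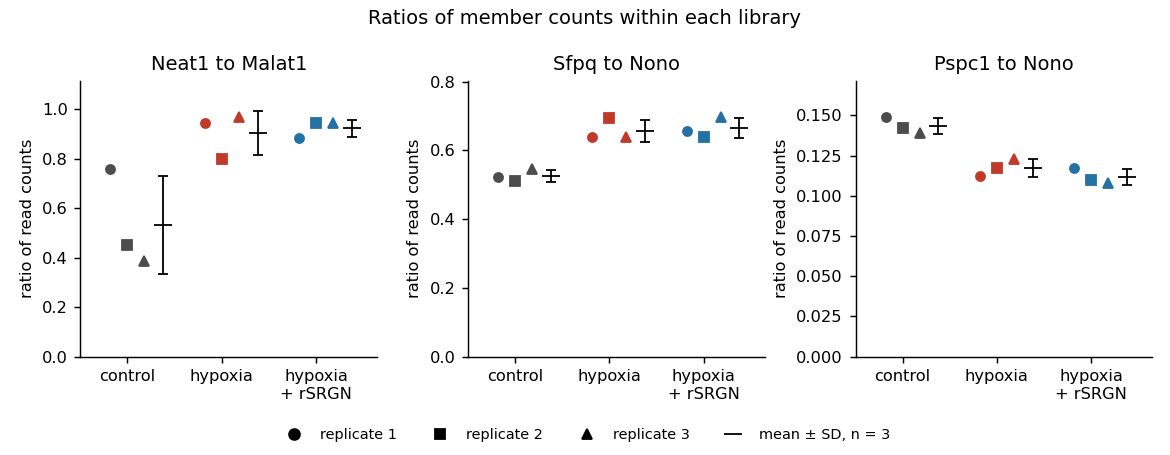
Ratio of read counts within each library for Neat1 to Malat1, Sfpq to Nono and Pspc1 to Nono, on axes that start at 0. Points are libraries and the bar beside each group is the mean ± SD (n = 3). In each panel no control library overlaps with a hypoxic one, whether rSRGN was added or not.

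Of 25 other paraspeckle proteins, all tested, 3 were called higher and 5 lower in hypoxia, beside 26.4% and 25.1% of all genes tested. The other 17 were not called. The 3 called higher were Dazap1 (log2 fold change 0.97), Taf15 (0.81), a FET-family RNA-binding protein, and Rbm3 (0.75), a cold-inducible protein. The 3 that fell most were Cirbp (-1.69), the other cold-inducible protein, Rbm4 (-1.13), a splicing regulator at only 4.02 to 4.69 CPM in control, and Rbm12 (-0.65). The cold-inducible pair went in opposite directions, with Cirbp at 96.2 to 103 CPM in control and 27.8 to 34.9 CPM in hypoxia, and Rbm3 at 178 to 192 CPM in control and 297 to 335 CPM in hypoxia. The median of the list was 0.111, beside 0.237 for the members. Without control replicate 1, 5 were called higher and 3 lower. Between hypoxia + rSRGN and hypoxia 0 of 25 were called by edgeR or by DESeq2, with 14 at an unadjusted p under 0.05 in edgeR. The median log2 fold change there was -0.181, beside -0.029 over all genes, and 9 of the 25 had an adjusted p under 0.05, beside 16.6% of all genes.

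Nuclear speckle proteins share the domain in which Malat1 gathers. Of 12, Son, the scaffold of speckles, was called lower (485, 511 and 514 CPM in control against 207, 203 and 201 CPM in hypoxia, log2 fold change -1.30), and Sart1, a factor of the spliceosome, higher (0.63). The other 10 were not called, so 1 of 12 was called higher and 1 lower, beside 26.4% and 25.1% of all genes tested. The median log2 fold change was 0.095. Between hypoxia + rSRGN and hypoxia 0 of 12 were called by edgeR or DESeq2, with 4 at an unadjusted p under 0.05 in edgeR.

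Of 13 other long noncoding RNAs listed, 12 were tested, since Miat had 0 to 20 counts. In hypoxia 3 of the 12 were called higher and 4 lower, beside 26.4% and 25.1% of all genes tested. The 3 that rose, Mirg (log2 fold change 2.61), Rian (1.5) and Meg3 (1.45), are all maternally expressed RNAs of the imprinted Dlk1-Dio3 region. Meg3 went from 207, 223 and 229 CPM in control to 655, 530 and 618 CPM in hypoxia. The largest falls were Mir17hg (-3.50), the host of a microRNA cluster, at only 2.61 to 4.81 CPM in control and 0.269 to 0.348 CPM in hypoxia, Jpx (-1.48), an RNA of the X inactivation centre, and 2900097C17Rik (-1.19), the mouse Norad, which is known mainly as a cytoplasmic RNA although the list holds it. The smallest of the 7 called changes was that of Tug1 (-0.59), close in size to that of Neat1 (0.57). Without control replicate 1, 3 were called higher and 3 lower.

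**Figure D4:**
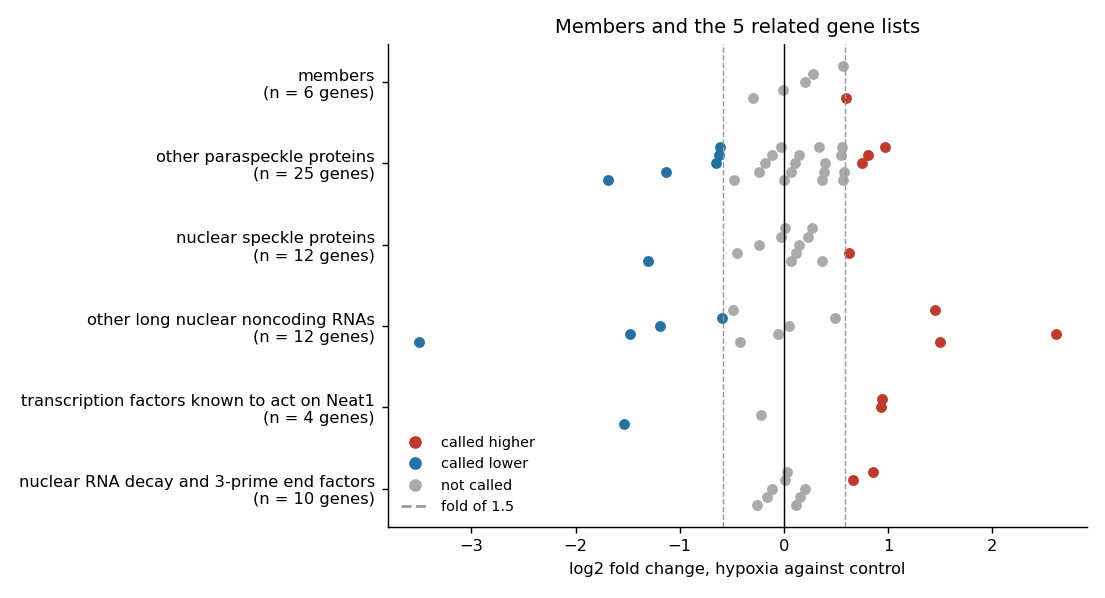
Log2 fold change in hypoxia against control (horizontal axis) of the 6 members and of every tested gene of 5 related lists. Each point is a gene, red called higher, blue called lower and grey not called, with dashed lines at a fold of 1.5 and vertical offsets only to separate points. The members span -0.30 to 0.60, while other long nuclear noncoding RNAs span -3.50 to 2.61.

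Transcription factors known to act on Neat1 did not move together. Of the 4 listed, 2 were called higher and 1 lower in hypoxia, beside 26.4% and 25.1% of all genes tested. Hsf1, the heat shock factor, rose (30.9, 32.3 and 28.5 CPM in control against 53.9, 63.2 and 58.5 CPM in hypoxia, log2 fold change 0.94), and so did Trp53, which encodes p53 (0.93). Hif1a, the oxygen-regulated subunit of HIF-1, fell (364, 318 and 341 CPM against 115, 135 and 105 CPM, log2 fold change -1.53), while Epas1, which encodes HIF-2α, was not called (-0.22). HIF is known to be regulated at the level of its protein, which was not measured here. With rSRGN, Hif1a had 166, 165 and 156 CPM, which is 0.46 higher than hypoxia on the log2 scale and within the fold limit (adjusted p = 0.000922, edgeR).

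Promoters of 5 of the 6 members were found in RefSeq's table (GRCm38.p6), from 250 bases before to 50 after the start. Neat1 is the member not searched. The 5 were searched on both strands for ACGTG and GCGTG, the cores bound by HIF, and for the heat shock element GAANNTTC. ACGTG occurred once, in Malat1, beside 19.6% of the 32851 promoters in the table. GCGTG occurred once in Sfpq and at 2 places in Pspc1, beside 32.4% of all promoters, and GAANNTTC in none of the 5, beside 7.86%. The promoters of the member with an ACGTG and of the called member are shown with these matches, on either strand, in capitals. A match is a sequence in this window and not a measured site.
Malat1, chr19:5802623-5802922, minus strand: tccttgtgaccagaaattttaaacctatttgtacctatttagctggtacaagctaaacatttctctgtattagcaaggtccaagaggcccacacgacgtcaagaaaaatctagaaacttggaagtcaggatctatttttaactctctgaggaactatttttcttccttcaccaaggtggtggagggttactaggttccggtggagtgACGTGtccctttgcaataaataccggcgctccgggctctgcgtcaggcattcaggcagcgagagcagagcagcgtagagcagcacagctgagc
Sfpq, chr4:127021051-127021350, plus strand: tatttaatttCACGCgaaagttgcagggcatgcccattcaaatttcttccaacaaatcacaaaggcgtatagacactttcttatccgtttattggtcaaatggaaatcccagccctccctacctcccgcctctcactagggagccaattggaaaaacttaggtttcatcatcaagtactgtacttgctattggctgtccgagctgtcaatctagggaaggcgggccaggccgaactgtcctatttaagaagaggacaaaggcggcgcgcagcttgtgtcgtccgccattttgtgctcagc

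Factors of nuclear RNA decay and 3′ end processing act on transcripts such as these. Of 10 tested, Exosc3, a subunit of the RNA exosome, rose (log2 fold change 0.86), and so did Mettl3 (0.66), the catalytic subunit of the m6A methyltransferase. The other 8 were not called, so 2 of 10 were called higher and 0 lower, beside 26.4% and 25.1% of all genes tested. The median log2 fold change was 0.0753. Between hypoxia + rSRGN and hypoxia 0 of these 10 were called by edgeR or DESeq2 (4 at an unadjusted p under 0.05 in edgeR), nor were any of the noncoding RNAs (5 of 12 at that p) or of the transcription factors (4 of 4). Slc7a2, whose long mouse transcript is known to be held in paraspeckles, had 29.1, 20.0 and 24.7 CPM in control, 36.7, 28.8 and 29.7 CPM in hypoxia and 33.7, 39.1 and 32.2 CPM in hypoxia + rSRGN. Control and hypoxia overlapped, and the log2 fold change was 0.37 ± 0.126 (SE, adjusted p = 0.0125, edgeR), within the fold limit.

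Malat1 and Neat1 lie side by side on the minus strand of chromosome 19 (GRCm38), at chr19:5795690-5802672 and chr19:5824708-5845478, with a gap of 22035 bases between them. In hypoxia the estimate for Malat1 was below 0 and that for Neat1 above 0. Of 14 protein-coding genes within 100 kb, 11 were tested, and in hypoxia 3 were called higher and 2 lower, beside 26.4% higher and 25.1% lower over all genes tested. Calls in both directions were thus common among all genes. Tigd3 (log2 fold change 2.40, with 7 to 44 counts per library) and Slc25a45 (1.24), a mitochondrial carrier, lie before the start of Neat1. Ltbp3 (1.22), a latent TGF-beta binding protein, lies past Malat1, as do Ehbp1l1 (-0.84) and Map3k11 (-0.65), the called falls. Frmd8 (0.0681), before the start of Neat1, was not called. Between hypoxia + rSRGN and hypoxia 0 of 11 were called by edgeR or DESeq2, with 3 at an unadjusted p under 0.05 in edgeR. Between hypoxia + rSRGN and control 3 were again called higher and 2 lower, beside 24.1% and 24.7% of all genes. There Cdc42ep2 (-0.82), before the start of Neat1, was called lower, and Map3k11 (-0.54) was not called.

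**Figure D5:**
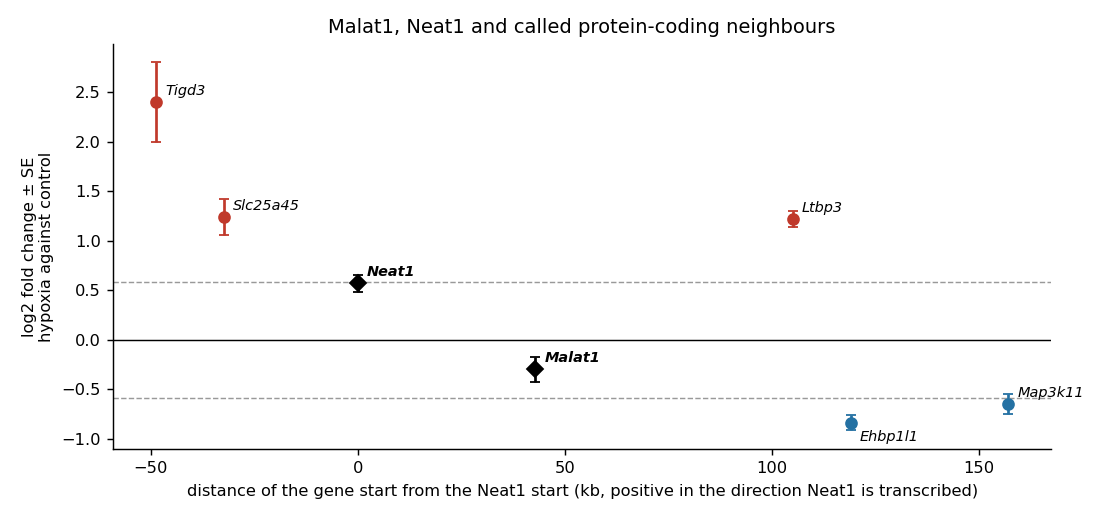
Log2 fold change ± SE in hypoxia against control of Malat1 and Neat1 (diamonds) and the 5 protein-coding neighbours called, against the distance in kb from the Neat1 start, positive in the direction of Neat1 transcription. Red is called higher and blue called lower, with dashed lines at a fold of 1.5. Neat1 at 0.57 and Malat1 at -0.30 lie on either side of 0, and of the called neighbours 3 are higher and 2 lower.

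Over the 9 libraries, the genes nearest to a member were found by the root mean square difference of log2 CPM, each gene centred on its control mean, among 9750 genes that include the member itself. Nearest to Sfpq were Eif4a1 (0.0424), Plpbp (0.0504) and Ube2q1 (0.0516), and nearest to Neat1 were Pomt1 (0.0735), Thyn1 (0.0760) and Lpin3 (0.0773). Neat1 and Sfpq, the closest member pair by this measure, differed by 0.201, where Sfpq took place 871 among the genes nearest to Neat1. The lowest place of one member among the genes nearest to another was 622, that of Pspc1 for Rbm14 (0.208). Nearest to Nono was Rtcb (0.0321), followed by Tmed10 (0.0357) and Ddx47 (0.0465). Pspc1 had Psmd6 (0.0509), Eif4a3 (0.0523) and Metap1d (0.0545), and Rbm14 had Stk16 (0.105), Coro7 (0.110) and Lrrc14 (0.111). Malat1 had the most distant partners, with Cntrl (0.139), Pdcd11 (0.159) and Synpo (0.160) the nearest. The measure is a description of 9 libraries that share scaling and depth, and small differences are common among genes that change little.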

How the data were processed

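The table deposited by the authors holds raw counts of fragments for each gene, for 9 libraries in 9 columns (0 left unused). The file header names featureCounts 2.0.1 on exons of GENCODE release 25 (GRCm38), paired-end, without a strand option, so antisense and overlapping genes are uncertain. The submitters' processing notes name HISAT2 and mm10. Groups were taken from the sample titles. Total counts per library are given at the opening of the results, and p-values rest on 3 libraries per group.

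Differential expression was tested with edgeR 4.0.16 in R 4.3.3 (filterByExpr, TMM, 1 mean per group over all 9 libraries, quasi-likelihood test with Benjamini-Hochberg adjustment over 16762 genes). Calls needed a fold of 1.5 or more beside an adjusted p under 0.05. Counts of genes at an unadjusted p under 0.05 are given without the share of all genes at that p. CPM are TMM-scaled, and log2 CPM used a prior count of 2. On simulated data with 200 of 16762 genes changed 2-fold, hypoxia against control gave 171 of these as calls, beside 10 among the rest. For hypoxia + rSRGN these numbers were 168 and 8 against hypoxia, and 176 and 4 against control. In the real data 8644 genes were called in hypoxia against control, and Sfpq, the called member, changed only 1.52-fold. The simulated numbers therefore do not measure how well changes of the size seen in the members are found.

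Ratios were compared with exact permutation tests in scipy 1.17.1, and figures drawn with matplotlib 3.10.9. The genes named are the 6 members, the 3 genes nearest to each in profile, protein-coding neighbours within 100 kb (those called, and Frmd8; the others are not reported here), Slc7a2, and from each list the 3 largest rises and falls among the called genes. Epas1, Tug1, Miat, Rn7sk, CT010467.1, Egln3 and Slc16a3 are outside this rule and were chosen after their values were seen. The members and lists were chosen with earlier results of these data known. Alternatives were DESeq2 1.42.0, RLE scaling, library size alone, other count filters, the unadjusted P, no fold limit, fits of only the groups compared, a replicate block, each library left out, and removal of 485 mitochondrial, rRNA and heat shock genes. The length of short Neat1 was an alternative chosen after the data were seen.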

Additional observations from a re-analysis of the deposited data

How the results depend on the processing

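Of 342 repeats of the member log2 fold changes under the alternatives, 320 kept their direction and stayed called or not called. The adjusted p alone could still cross its threshold among these 320. For Malat1 in hypoxia against control it was 0.0439 in the main edgeR fit and 0.134 in DESeq2, with no call in either. Of 57 repeats of the number of members called, 45 kept it within 1.5 times. Sfpq in hypoxia against control (0.60) fell under the fold limit with DESeq2 (0.58), RLE scaling (0.58), no low-count filter (0.55) and without control replicate 1, control replicate 2 or hypoxia replicate 2 (0.49 to 0.67 over all libraries left out), so that 0 of 6 members were called under the first 3. Neat1 there (0.57) was called with library size alone (0.64, making 2 members called) and, of the fits with a library left out (0.51 to 0.66), only without hypoxia replicate 2. Without the fold limit, 4, 1 and 4 members passed in the 3 comparisons, hypoxia to control first, rSRGN to hypoxia next and rSRGN to control last: Malat1 (-0.30), Neat1 (0.57), Sfpq and Nono (0.28) in the first, Rbm14 (-0.36) in the second, and Malat1 (-0.55), Neat1 (0.35), Sfpq (0.48) and Pspc1 (-0.21) in the last. Malat1 in the last was also called with no low-count filter (-0.59, 1 member called) and, of the fits with a library left out (-0.77 to -0.40), only without control replicate 1 and without rSRGN replicate 1. With a library left out the number of members called was 0 to 1 in both comparisons with control and 0 with rSRGN against hypoxia.

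Pspc1 in hypoxia against control (-0.00973) turned above 0 with library size alone (0.0576) and lay between -0.0739 and 0.065 with a library left out. The log2 ratio with rSRGN against hypoxia lay between -0.0498 and 0.0877 for Neat1 to Malat1 and between -0.0194 and 0.0561 for Sfpq to Nono with a library left out, so neither has a direction. The cause of these changes was not tested. Over all genes, calls of rSRGN against hypoxia went from 525 to 899 with the unadjusted P, to 2790 without the fold limit, and to 321 without hypoxia replicate 3 (321 to 699 over the libraries left out). In hypoxia against control, calls per setting were 8496 to 8952 with a library left out.

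The replicate numbers did not pair the libraries, since deviations of same-numbered libraries correlated at -0.0374 to 0.0215. The fit with the replicate block called 8550, 495 and 8096 genes in the 3 comparisons, beside 8644, 525 and 8183 without the block, and no call of a member changed. On adjusted p alone, the block took Malat1 in hypoxia against control (0.0597), Rbm14 in rSRGN against hypoxia (0.0524) and Pspc1 in rSRGN against control (0.0543) above the threshold of 0.05. At 354 to 508 counts per library in control, Rbm14 was the least deeply covered member, and poly(A) selection limits what the counts of Malat1 and Neat1 can show.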
